A study of Oryza sativa with 4 samples.

Results

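The genes described here are the 8 rice α-amylase genes of the RAmy family, RAmy1A, RAmy1C, RAmy2A, RAmy3A, RAmy3B, RAmy3D, RAmy3E and RAmy3F, chosen by their locus identifiers among the 55986 gene models of the series. They were followed in seedlings of the mre11 mutant and of the wild type (WT). The sample labels do not say whether whole seedlings were taken or whether the grain was left on. α-Amylase cuts the starch of the endosperm into soluble sugars that feed the seedling until its leaves can do so. In the germinating cereal grain the enzyme is made and secreted by the scutellum and the aleurone layer. Gibberellin from the embryo switches many of these genes on, abscisic acid holds them back, and sugar represses members of the RAmy3 group.

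The mre11 line carries a T-DNA insertion in an intron of Mre11, whose protein acts with Rad50 and Nbs1 in the repair of DNA double-strand breaks, and it was the only insertion line sequenced. The WT plants were of the japonica cultivar Dongjin. RNA-seq was done on 7-day-old mre11 seedlings and on WT seedlings of the same age, with 2 samples of each genotype and the RNA of 3 plants pooled in each. The labels do not say whether the samples of a genotype came from separate sowings, so the p-values given here measure only the spread between these samples, which may be technical.

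Reads were counted on gene models without normalization. The library totals were 19004825 and 17170661 counts in mre11 replicates 1 and 2, against 12753324 and 16460543 counts in WT replicates 1 and 2. Levels of a gene are given as CPM, counts scaled by TMM to a common library total, which corrects for library size and composition. Genes were compared between genotypes with edgeR's quasi-likelihood test over 24470 genes that passed a filter on low counts. A gene was called higher or lower at an adjusted p (Benjamini-Hochberg, over all tested genes) under 0.05 together with at least a 2-fold difference. Fold changes are mre11 over WT. For a single gene an exact permutation test of 2 against 2 samples cannot give p below 0.333, so each p depends on the variance that the model borrows across genes. Mre11 itself (LOC_Os04g54340) had 132 and 118 counts in the mre11 libraries, against 306 and 471 counts in the WT libraries, a log2 fold change of -2.09 (adjusted p = 0.00141, edgeR).

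The α-amylase genes were weakly expressed in these seedlings. Of the 8 genes, 7 had at least 1 count in any library, and 3 passed the filter on low counts and were tested (RAmy2A, RAmy3B and RAmy3D). Of the 3 tested genes, 0 were called higher and 0 lower in mre11 by edgeR, 0 had an unadjusted p under 0.05, and DESeq2 called 0. Over all tested genes 12.0% were called higher and 9.31% lower. The median log2 fold change of the 3 genes was 0.70, beside 0.03 over all tested genes, and it was -0.048 without mre11 replicate 2. These 3 are not the whole family, and the other 5 genes did not pass the filter, RAmy1A with all of its reads in mre11 replicate 2. The levels did differ between libraries, and the largest differences lay between the 2 mre11 libraries, as described gene by gene below.

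RAmy3D (LOC_Os08g36910) encodes an α-amylase known from rice embryos and cultured rice cells to be induced when sugar runs out. It had 12 counts in mre11 replicate 1 and 376 counts in mre11 replicate 2, against 73 and 89 counts in WT replicates 1 and 2. Scaled for depth, these were 0.580 and 21.4 CPM in the mre11 libraries, against 6.13 and 5.66 CPM in the WT libraries. The WT libraries lay close together, with one mre11 library far below both and the other far above both. The mre11 mean was 11.0 ± 14.7 CPM, against 5.90 ± 0.331 CPM in WT (SD, n = 2 each). The log2 fold change was 0.89 with a standard error of 1.18, and the adjusted p was 0.582 (edgeR), so the genotypes did not differ beyond the spread between mre11 libraries.

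The call for RAmy3D turned with the choice of mre11 library. Without mre11 replicate 2 the log2 fold change was -3.33 (adjusted p = 0.0056, edgeR) and RAmy3D was called lower. Without mre11 replicate 1 it was 1.87 (adjusted p = 0.00325, edgeR) and RAmy3D was called higher. In both of these fits the lone mre11 library is assumed to vary as the WT libraries do.

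**Figure D1:**
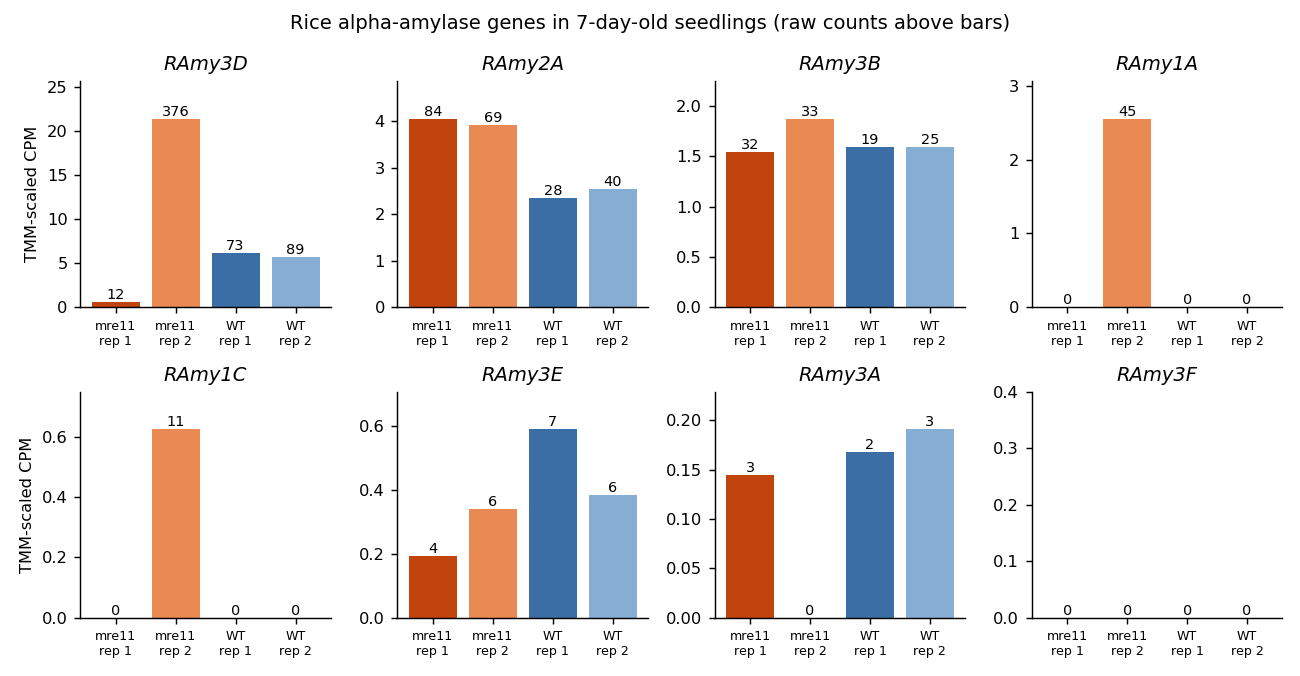
Level of each α-amylase gene in each library, in TMM-scaled CPM (vertical axis, linear and starting at 0, with its own scale in each panel), with mre11 replicates 1 and 2 left of WT replicates 1 and 2 and the raw count above each bar. RAmy3D reaches 21.4 CPM in mre11 replicate 2 and 0.580 CPM in mre11 replicate 1, and RAmy1A and RAmy1C have counts in mre11 replicate 2 alone.

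Within the mre11 genotype, RAmy3D was 36.9-fold higher in replicate 2 than in replicate 1 (exact 95% interval 20.9 to 72.0, which covers counting error only). On the log2 CPM scale of edgeR the difference was 4.94. That difference ranked 6 by size among the 24470 tested genes, of which 0.0245% differed by at least as much, while the median size over all tested genes was 0.241. The other 9 of the 10 largest differences between the mre11 libraries ran the opposite way, with the higher level in replicate 1. Between the WT libraries RAmy3D was nearly level, with a ratio of 0.924 for replicate 2 over replicate 1 (exact 95% interval 0.670 to 1.28).

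**Figure D2:**
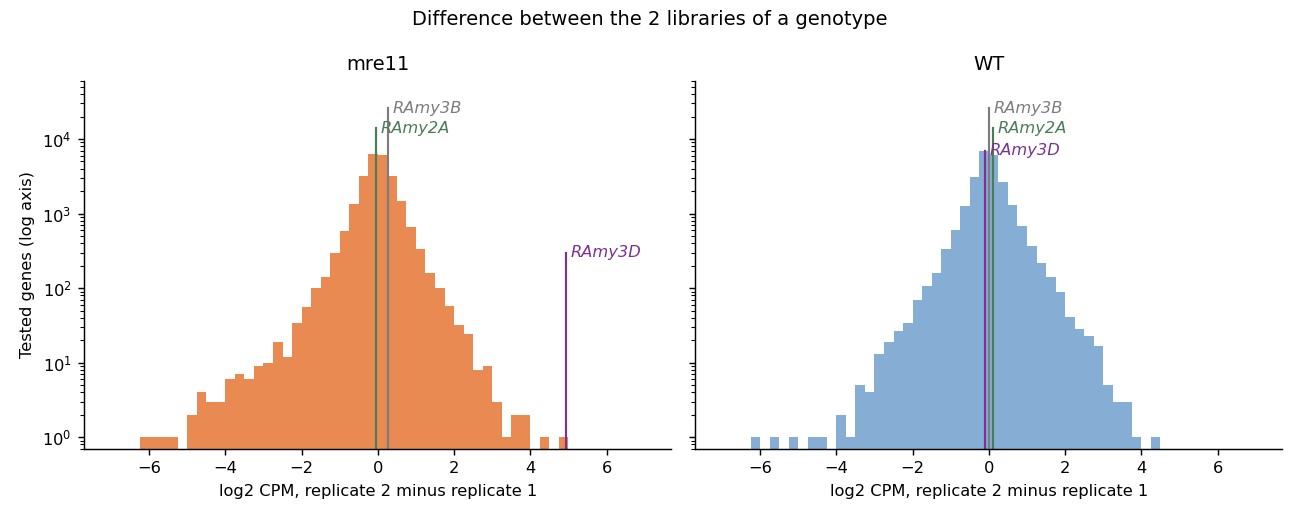
Number of tested genes (vertical axis, log scale) by the difference in log2 CPM between replicate 2 and replicate 1 (horizontal axis, bins of 0.25), in mre11 (left) and WT (right), with the 3 tested α-amylase genes marked by lines whose heights carry no value. RAmy3D stands at 4.94 in mre11 and at -0.11 in WT, while RAmy2A and RAmy3B stay near 0 in both genotypes.

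RAmy1A (LOC_Os02g52710), the main gibberellin-induced α-amylase gene of the rice aleurone, was seen in 1 library. It had 0 and 45 counts in mre11 replicates 1 and 2, against 0 counts in each WT library. The level in mre11 replicate 2 was 2.56 CPM. Taking 3 counts per library as the limit that a count of 0 allows, this was at least 17.7-fold higher than in mre11 replicate 1, at least 10.2-fold higher than in WT replicate 1 and at least 13.4-fold higher than in WT replicate 2. With the counting error of the 45 reads taken in as well, the lower 95% limit of the ratio to mre11 replicate 1 was 13.8. RAmy1A did not pass the filter on low counts, which asks for reads in as many libraries as a genotype has. Without that filter its fitted log2 fold change was 7.38 with a standard error of 2.01 (adjusted p = 0.00486, edgeR), a call that rests on mre11 replicate 2 alone.

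RAmy1C (LOC_Os02g52700), the neighbouring copy of RAmy1A, showed the same distribution at a lower level. It had 0 and 11 counts in the mre11 libraries, against 0 and 0 counts in the WT libraries. At 0.625 CPM, mre11 replicate 2 was at least 4.31-fold higher than mre11 replicate 1, at least 2.48-fold higher than WT replicate 1 and at least 3.27-fold higher than WT replicate 2, and the lower 95% limit of the ratio to mre11 replicate 1 was 2.95. Reads of near-identical copies can be assigned to either copy or lost, so the split between RAmy1A and RAmy1C is uncertain. The adjoining gene models on both sides, LOC_Os02g52690 and LOC_Os02g52720, had 0 counts in every library.

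Few gene models in the series were seen in 1 library in this way. With at least 30 counts in 1 library and at most 3 in each of the others, there were 12 models for mre11 replicate 1, 4 for mre11 replicate 2, and 0 for either WT library. RAmy1A was 1 of the 4 of mre11 replicate 2. The others were LOC_Os01g70360 with 246 counts there, LOC_Os01g70370 with 42 and LOC_Os05g45130 with 61. The first pair is annotated with the orthology identifier of serine palmitoyltransferase, an enzyme of sphingolipid synthesis.

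RAmy2A (LOC_Os06g49970), the single member of its subfamily, was even between the libraries of each genotype, with ratios of replicate 2 over replicate 1 of 0.967 in mre11 and 1.08 in WT. It had 84 and 69 counts in the mre11 libraries, against 28 and 40 counts in the WT libraries. The levels were 4.06 and 3.92 CPM in mre11, against 2.35 and 2.55 CPM in WT. Both mre11 libraries lay above both WT libraries, as was the case in 1 of the 3 tested α-amylase genes. The groups did not overlap, in either direction, in 73.2% of all tested genes, so that separation alone did not set RAmy2A apart.

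The mean of RAmy2A was 3.99 ± 0.0962 CPM in mre11 and 2.45 ± 0.137 CPM in WT (SD, n = 2 each). The log2 fold change of 0.70, or 1.63-fold, had a standard error of 0.322 and an adjusted p of 0.132 (edgeR), which misses both parts of the threshold. When each library was left out in turn the log2 fold change stayed between 0.65 and 0.76. Scaling by library size alone moved the median of all genes to 0.19 and the log2 fold change of RAmy2A to 0.86.

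RAmy3B (LOC_Os09g28420), an α-amylase of the RAmy3 group, was level between the genotypes. It had 32 and 33 counts in the mre11 libraries, against 19 and 25 counts in the WT libraries. In CPM these were 1.55 and 1.88 in mre11, against 1.60 and 1.59 in WT, so that the WT values lay between the mre11 values. The log2 fold change was 0.10 with a standard error of 0.404 (adjusted p = 0.864, edgeR). That error still allows a change of either sign.

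The remaining genes of the RAmy3 group were at or near the limit of detection. RAmy3E (LOC_Os08g36900), which lies next to RAmy3D, had 4 and 6 counts in the mre11 libraries, against 7 and 6 counts in the WT libraries. The levels of RAmy3E were 0.193 and 0.341 CPM in mre11 and 0.588 and 0.382 CPM in WT, lower in both mre11 libraries but by a few reads. Within mre11, RAmy3E had a ratio of 1.77 for replicate 2 over replicate 1 (exact 95% interval 0.419 to 8.50), which lies below the interval of the same ratio for RAmy3D. RAmy3A (LOC_Os09g28400), beside RAmy3B, had 3 and 0 counts in the mre11 libraries, against 2 and 3 counts in the WT libraries, and no fold is given at this depth. RAmy3F (LOC_Os01g25510) had 0 counts in all 4 libraries, where 3 counts correspond to 0.145 and 0.171 CPM in mre11 and to 0.252 and 0.191 CPM in WT.

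The paired genes allow the counts of neighbours to be added. RAmy3D plus RAmy3E gave a log2 fold change of 0.81 (adjusted p = 0.599, edgeR), and RAmy3A plus RAmy3B gave 0.01 (adjusted p = 0.991, edgeR). RAmy1A plus RAmy1C still did not pass the filter. Of the 21 other gene models within 2 places of a member in the deposited order, 7 were tested, 2 of them were called higher and 2 lower, counts too small to read against the 12.0% and 9.31% over all tested genes. The model beside RAmy3D on the side away from RAmy3E, LOC_Os08g36920, had 6 and 5 counts in the mre11 libraries, against 4 and 11 counts in the WT libraries, and did not follow RAmy3D.

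Added over the 8 genes, the α-amylase signal was 6.52 and 30.7 CPM in mre11 replicates 1 and 2, against 10.8 and 10.4 CPM in WT replicates 1 and 2. The exact 95% counting intervals were 5.47 to 7.72 and 28.2 to 33.4 CPM for the mre11 libraries, against 9.05 to 12.9 and 8.84 to 12.1 CPM for the WT libraries. The 2 mre11 libraries again lay on opposite sides of the WT pair. The log2 ratio of the means was 0.81, and it was -0.70 without mre11 replicate 2. Without RAmy3D the sums were 5.94 and 9.32 CPM in mre11, against 4.70 and 4.71 CPM in WT, and both mre11 libraries then lay above WT. In RNA from seedlings, fewer cells of a type and less RNA per cell cannot be told apart.

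The make-up of the family changed with the library too. RAmy3D held 8.89% of the α-amylase reads in mre11 replicate 1 (Wilson 95% interval 5.16% to 14.9%) and 69.6% in mre11 replicate 2 (65.6% to 73.4%), against 56.6% (48.0% to 64.8%) and 54.6% (46.9% to 62.1%) in the WT libraries. RAmy2A held 62.2% and 12.8% in the mre11 libraries, against 21.7% and 24.5% in the WT libraries. By reads, RAmy2A led in mre11 replicate 1 and RAmy3D led in the other 3 libraries. RAmy3B held 23.7% and 6.11% in mre11, against 14.7% and 15.3% in WT, and RAmy1A held 8.33% in mre11 replicate 2.

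**Figure D3:**
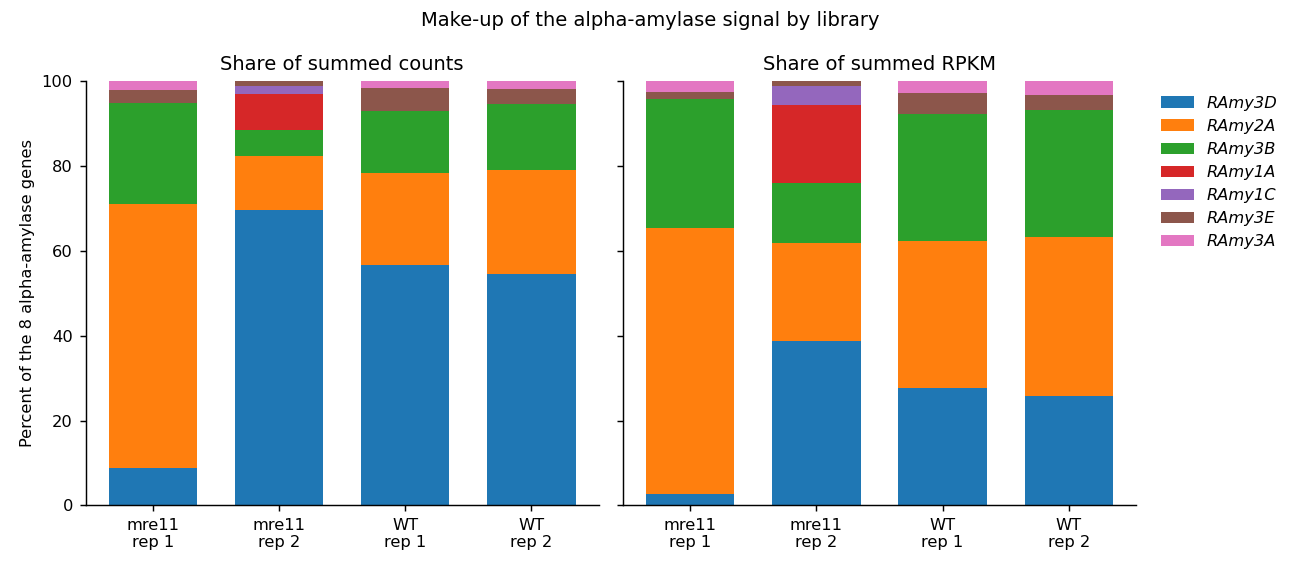
Share of each α-amylase gene in the summed counts (left) and in the summed RPKM (right) of the 8 genes, in percent, with mre11 replicates 1 and 2 left of WT replicates 1 and 2. RAmy3D fills 69.6% of the counts in mre11 replicate 2 and 8.89% in mre11 replicate 1, and its share is smaller in the summed RPKM than in the summed counts of every library.

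Between genes, levels are compared per length, in the deposited RPKM (read counts scaled by library total and gene length). In mre11 replicate 1 the order was RAmy2A at 2.23 RPKM, RAmy3B at 1.09 RPKM and RAmy3D at 0.10 RPKM, with RAmy3A at 0.09 and RAmy3E at 0.06 RPKM. In mre11 replicate 2 it was RAmy3D at 3.40 RPKM, RAmy2A at 2.02 RPKM, RAmy1A at 1.62 RPKM, RAmy3B at 1.24 RPKM and RAmy1C at 0.39 RPKM, with RAmy3E at 0.10 RPKM. In WT, RAmy2A had 1.11 and 1.22 RPKM, RAmy3B had 0.96 and 0.98 RPKM and RAmy3D had 0.89 and 0.84 RPKM. These 3 WT ranges are separate but close and rest on 19 to 89 counts per library, so their order is not firm, and RAmy3E (0.16 and 0.11 RPKM) and RAmy3A (0.09 and 0.11 RPKM) overlap. The length behind the RPKM of RAmy3D worked out at 6.44 kb, although the files list 2.86 kb for the gene. For RAmy3B it worked out at 1.55 kb against 8.91 kb listed, and for RAmy2A at 1.98 kb against 4.14 kb. Divided by the listed length instead, RAmy3D had 0.203 and 7.48 CPM per kb in the mre11 libraries, against 2.15 and 1.98 CPM per kb in the WT libraries. RAmy2A had 0.980 and 0.948 CPM per kb in mre11, against 0.568 and 0.615 CPM per kb in WT. On that scale RAmy3D lay below RAmy2A in mre11 replicate 1 and above it in the other 3 libraries. Its share of the family was then 13.4% and 71.4% in the mre11 libraries, against 65.8% and 65.0% in the WT libraries. The order and the shares between genes therefore depended on the length, while comparisons of 1 gene between libraries did not.

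**Figure D4:**
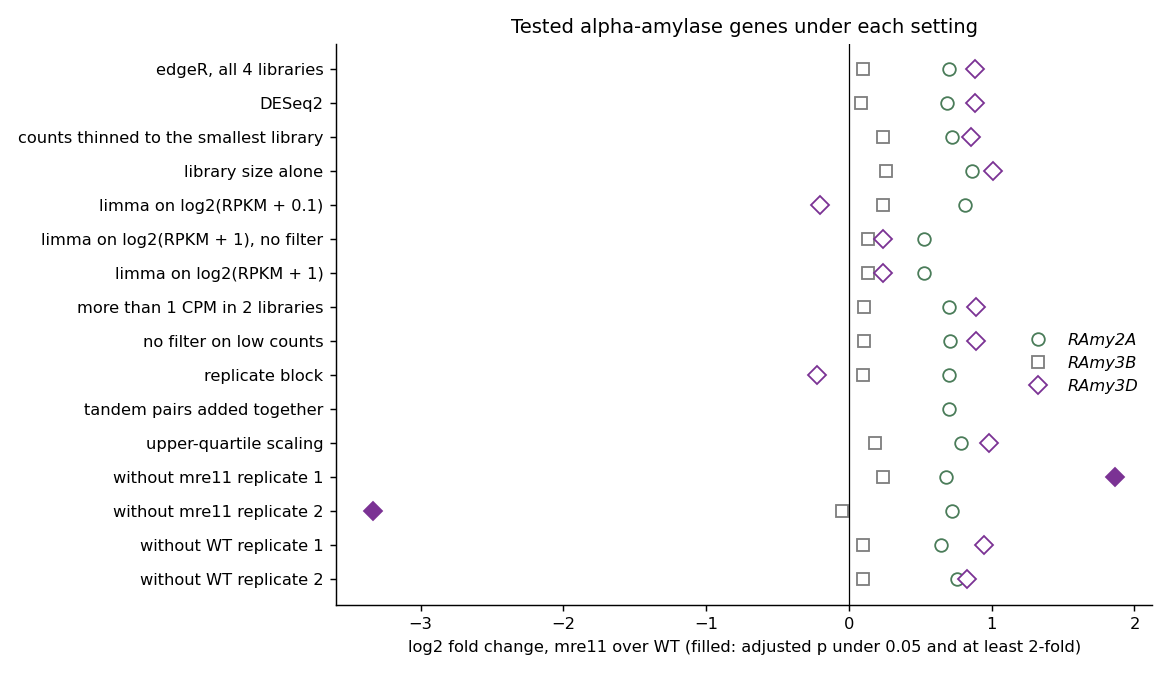
Log2 fold change of RAmy2A, RAmy3B and RAmy3D (horizontal axis, mre11 over WT) under each setting (rows, the test of the text at the top and single libraries left out at the bottom), with filled symbols where the gene was called. RAmy2A stays to the right of 0 in every row, and RAmy3D moves to -3.33 without mre11 replicate 2 and to 1.87 without mre11 replicate 1.

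In the deposited annotation all 8 genes carry the orthology identifier of α-amylase and the terms for α-amylase activity and calcium binding, calcium being the ion that cereal α-amylases need. Response to gibberellin, response to abscisic acid and the apoplast, the space outside the cell membrane, are listed for 7 of the 8 genes, all but RAmy3F. Starch catabolism and sucrose catabolism are listed for 3 genes, RAmy3A, RAmy3B and RAmy3D. The 3 genes that share these terms did not share a pattern, with RAmy3D varying between the mre11 libraries, RAmy3B level and RAmy3A at or below 3 counts in each library.

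The files hold 2 more gene models annotated with α-amylase activity, and both had more counts than any RAmy gene in every library. Per length in mre11 replicate 2, LOC_Os04g33040 had 31.96 RPKM, LOC_Os01g51754 had 3.64 RPKM and RAmy3D had 3.40 RPKM. The RPKM of RAmy3D rests on 6.44 kb, although 2.86 kb is listed, so its order beside LOC_Os01g51754 is not firm. LOC_Os01g51754 had 461 and 465 counts in the mre11 libraries, against 1091 and 1386 counts in the WT libraries. It was lower in both mre11 libraries and was called lower, with a log2 fold change of -1.89 by edgeR (adjusted p = 0.00119, standard error 0.149) that stayed between -2.02 and -1.76 with any 1 library left out. LOC_Os04g33040 had 766 and 680 counts in mre11, against 592 and 715 counts in WT, a log2 fold change of -0.33 that was not called (adjusted p = 0.102, edgeR).

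The other enzymes of starch breakdown changed in both directions. Of the 7 tested β-amylases, which release maltose from the chain ends, 1 was called higher and 2 were called lower, and their median log2 fold change was -0.33. Across all tested genes 12.0% were called higher and 9.31% lower, and the counts of this and the following lists stand beside those shares. LOC_Os10g41550 fell to 88 and 112 counts in mre11, against 374 and 454 counts in WT (log2 fold change -2.51, adjusted p = 0.00152, edgeR). The call of the higher one, LOC_Os03g04770 (log2 fold change 1.36), was lost without WT replicate 2. The call of the other lower one, LOC_Os10g32810 (-1.13), was lost without WT replicate 1 or mre11 replicate 2.

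The list of other starch breakdown had 17 tested genes, with 3 called higher and 3 lower, but 3 of them are β-amylases of the previous paragraph. Without these it had 14 tested genes, of which 2 were called higher and 2 lower. The 2 called higher are α-glucosidases, which split maltose to glucose. Of the 4 tested models annotated as α-glucosidase, these 2 were called higher and 0 lower. LOC_Os06g46340 had 1194 and 884 counts in mre11, against 156 and 138 counts in WT (log2 fold change 2.31, adjusted p = 0.00155, edgeR). LOC_Os06g46284 had 918 and 703 counts in mre11, against 161 and 239 counts in WT (log2 fold change 1.55, adjusted p = 0.00176, edgeR). The 2 called lower, LOC_Os08g29160 (log2 fold change -1.20) and LOC_Os03g01750 (-1.34), carry the term for starch catabolism. Models annotated as pullulanase numbered 0.

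Among 21 tested genes of gibberellin signalling and response, 3 were called higher and 4 lower, with a median log2 fold change of -0.28. A gene annotated as the gibberellin receptor GID1, LOC_Os07g44890, had 454 and 423 counts in mre11, against 88 and 91 counts in WT (log2 fold change 1.81, adjusted p = 0.00232, edgeR). A gene annotated as a DELLA protein, LOC_Os01g45860, had 266 and 193 counts in mre11, against 37 and 40 counts in WT (log2 fold change 2.08, adjusted p = 0.00301, edgeR). GID1 binds gibberellin, and DELLA proteins hold back gibberellin responses until the bound receptor has them removed. Whether all genes with these identifiers are gibberellin receptors or DELLA proteins was not checked. The other genes with these identifiers, looked up after the values were known, did not follow. Of the 3 tested genes annotated as GID1, LOC_Os11g13570 was called lower (540 and 401 counts in mre11, against 639 and 838 counts in WT, log2 fold change -1.13, adjusted p = 0.00301, edgeR). LOC_Os05g33730, the most abundant of them in counts, had 3680 and 2582 counts in mre11, against 3869 and 4343 counts in WT. Its log2 fold change was -0.89 (adjusted p = 0.00962, edgeR), so it was lower but missed the fold threshold and was not called. The other tested gene annotated as a DELLA protein, LOC_Os03g49990, had 1947 and 2715 counts in mre11, against 1808 and 2365 counts in WT. It missed both parts of the threshold (log2 fold change -0.28, adjusted p = 0.373, edgeR). With the term for response to gibberellin, LOC_Os12g39630 (log2 fold change -3.33) and LOC_Os06g48200 (-2.43) were called lower. Models annotated as GID2 numbered 0.

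The sugar list took in genes with the orthology identifiers of SnRK1 kinases, hexokinases, invertases and sucrose synthases. In it 8 of 53 tested genes (15.1%) were called higher and 9 (17.0%) lower, with a median log2 fold change of 0.03. The SnRK1 identifier alone gave 28 of the tested genes, with 3 called higher and 6 lower. Whether all of these are SnRK1 kinases was not checked. In the whole list the number called higher was 4 without WT replicate 2. Of 289 tested genes of carbohydrate metabolism outside the RAmy family, 52 (18.0%) were called higher and 25 (8.65%) lower (median 0.22), and 14 of the 289 also stand in another of the lists. Without WT replicate 2 the number called higher was 30, and without WT replicate 1 the number called lower was 15.

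**Figure D5:**
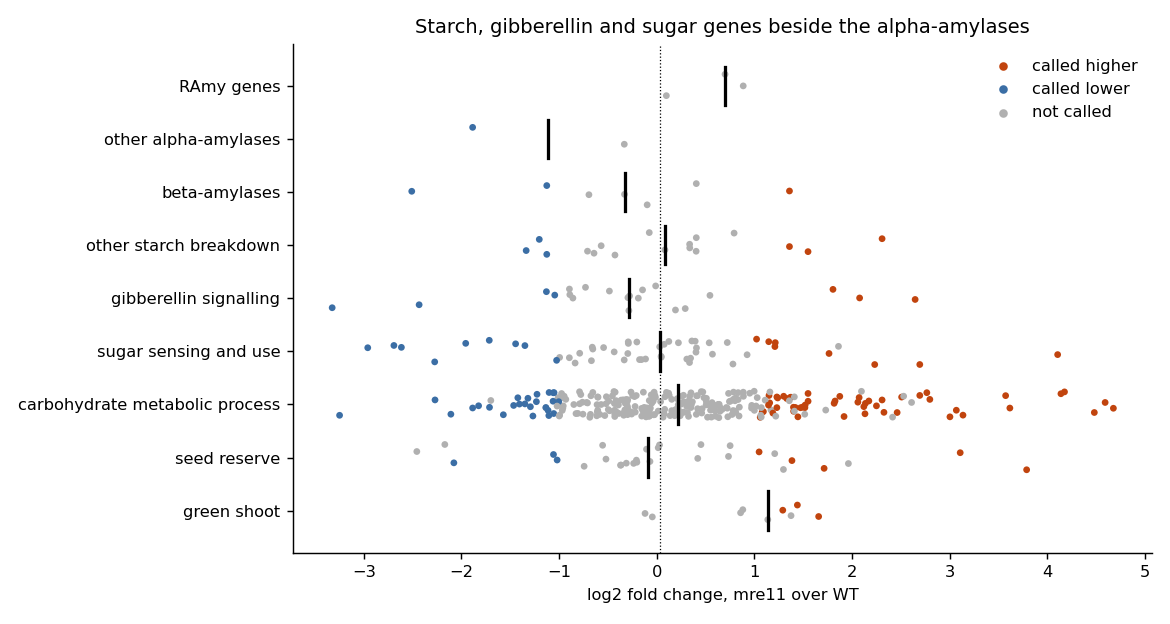
Log2 fold change (horizontal axis, mre11 over WT) of each tested gene in each list (rows, points spread vertically for clarity), coloured by call, with a gene drawn in every list that holds it, the list's median as a black bar and the median of all tested genes, 0.03, as a dotted line. The 3 tested RAmy genes are all uncalled, and the starch, gibberellin and sugar lists hold called genes on both sides of 0.

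Genes with annotation terms for nutrient reservoir activity or oil bodies formed the seed list. These terms do not show that a gene is active in the grain, so the list does not measure grain tissue left on the seedlings. Of 63 models with nutrient reservoir or oil-body terms, 14 were at 0 in every library, 30 were tested, 5 were called higher and 3 lower. The summed level was 1264 and 1401 CPM in mre11, against 1074 and 1012 CPM in WT. Single genes set much of that sum. LOC_Os08g35760 gave 44.3% and 50.8% of it in mre11, against 27.5% and 9.16% in WT, and LOC_Os08g13440 gave 23.2% and 14.1% in mre11, against 41.7% and 56.5% in WT. Without LOC_Os08g35760 the summed level was lower in mre11, at 704 and 689 CPM, against 779 and 919 CPM in WT. Without LOC_Os08g13440 the summed level was higher in mre11, at 970.5 and 1204 CPM, against 626 and 440 CPM in WT. The genes of this list differed in direction, too. LOC_Os01g14670 was called higher (2660 and 2156 counts in mre11, against 475 and 880 counts in WT, log2 fold change 1.39) and kept its call with any 1 library left out. LOC_Os08g35750 was called higher with 42 and 126 counts in mre11, against 3 and 6 counts in WT, but its call was lost without either WT library. LOC_Os01g55650 (log2 fold change -1.02) and LOC_Os08g13440 (-1.06) were called lower, but neither kept its call without WT replicate 1, and LOC_Os08g13440 also lost it without WT replicate 2 or mre11 replicate 2. The part of grain tissue in the α-amylase values was not tested. In the seed list the number called higher was 1 without WT replicate 2 and the number called lower was 0 without WT replicate 1.

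Light-harvesting genes, markers of green shoot, summed to 11910 and 18550 CPM in mre11, against 5958 and 9955 CPM in WT. Of 9 tested, 3 were called higher and 0 lower, and 1 of the 10 models was at 0 in every library. The number called higher was 0 without WT replicate 1 or without mre11 replicate 2, 5 without WT replicate 2 and 7 without mre11 replicate 1. The higher sum lay in replicate 2 of each genotype, as did the RAmy3D level within mre11, and its part in the RAmy3D values was not tested.

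The 2 tested genes whose profile over the 4 libraries was nearest to that of RAmy3D, by Euclidean distance of centred log2 CPM among 20843 genes, were both annotated with defence response. LOC_Os12g36860 had 9 and 67 counts in mre11, against 32 and 62 counts in WT, at a distance of 1.66. LOC_Os11g37950 had 155 and 827 counts in mre11, against 561 and 375 counts in WT, at a distance of 1.75. In both, as in RAmy3D, mre11 replicate 1 was the lowest library. Unlike in RAmy3D, mre11 replicate 2 lay between the WT libraries in both.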

How the data were processed

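Using the rice pseudomolecules of version 7.0 as reference, the authors counted reads per gene with HTSeq 0.6.1 and deposited the raw counts (the submitters' notes also name DESeq2 1.6.3). The deposited RPKM values, which the authors made from their counts by gene length and library total, were used for levels between genes and as an alternative scale. The strand setting is not given in the sources used here. The aligner is not given either.

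The test was the quasi-likelihood test of edgeR 4.0.16 in R 4.3.3, after filterByExpr by genotype and TMM scaling and without a replicate block. Standard errors are the fold change over the square root of F. Alternatives used DESeq2 1.42.0, limma 3.58.1 on log2(RPKM + 1) or log2(RPKM + 0.1), other scalings, filters, thresholds, thinning, a replicate block, added tandem pairs and single libraries left out. Lists came from the orthology identifiers and GO terms of the deposited annotation. The genes, lists and tests were chosen with earlier results of these data known. Named genes were the 8 members, Mre11, the 2 called genes per direction with the lowest adjusted p in lists of at most 30 tested genes, and the 2 nearest profiles to the member with the highest mean CPM. Gene models seen in 1 library, the large members of the seed list and those in the closing observations, were chosen after their values were seen. Intervals and floors of 3 counts cover counting error only.

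Of the 8 names, 6 matched RefSeq synonyms in another assembly, on chromosomes 2, 6, 8 and 9. It listed 0 genes between RAmy3D and RAmy3E and 0 between RAmy3A and RAmy3B. The planned search for promoter motifs was not run, because no promoter sequences were used here.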

Additional observations from a re-analysis of the deposited data

How the results depend on the processing

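Of 17 alternative settings, 3 changed the number of RAmy genes called. The number called higher was 1 with no filter on low counts (RAmy1A) and 1 without mre11 replicate 1 (RAmy3D), and it lay between 0 and 1 when single libraries were left out. The number called lower was 1 without mre11 replicate 2 (RAmy3D), and also lay between 0 and 1. The log2 fold change of RAmy3D lay between -3.33 and 1.87 with single libraries left out, and was -0.23 with a replicate block and -0.21 with limma on log2(RPKM + 0.1), and the cause was not tested. That of RAmy3B lay between -0.048 and 0.24, and the log2 ratio of summed RAmy CPM between -0.70 and 1.53. RAmy2A stayed uncalled and positive under every setting tried (0.53 to 0.86).

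Over all genes, 4594 were called higher and 4483 lower with no fold threshold, and 1614 and 1493 at an adjusted p under 0.01. Those called lower numbered 1329 with limma on log2(RPKM + 1) and 1164 with no filter on RPKM. With single libraries left out, 1705 to 2595 were called higher and 1431 to 2262 lower. Of the called genes 56.3% were higher after TMM and 68.9% with library size alone. Over the tested genes, the differences between replicates were not correlated between the genotypes (correlation of deviations -0.00353 over 2 pairs). The labels do not say whether replicate numbers pair the samples, and this value cannot settle it. The replicate block gave 2736 genes called higher and 2231 lower, with 0 RAmy genes called. The planned promoter search was not run.
Low depth, or for RAmy1A reads in mre11 replicate 2 alone, kept 5 of the 8 RAmy genes from being tested. The rest are limited by 2 libraries per genotype.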

Other observations

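Genes of ethanol fermentation, which plants use when oxygen is short, set the same pair of mre11 libraries apart. They were looked up after the largest differences between these libraries had been seen, so their values are a description. Models annotated as pyruvate decarboxylase, the first enzyme of that route, summed to 393 and 157 CPM in mre11 replicates 1 and 2, against 134 and 97.8 CPM in WT replicates 1 and 2. LOC_Os03g18220 gave most of the mre11 sums, with 289 and 128.5 CPM. Of the 4 tested models, 3 were higher in mre11 replicate 1 than in replicate 2. LOC_Os01g06660 was nearly level at 29.75 and 26.08 CPM. LOC_Os07g49250 (5 and 13 counts) and LOC_Os10g33980 (4 and 5 counts) ran the other way in mre11. LOC_Os05g39310 of this group had 1178 and 9 counts in the mre11 libraries, against 3 and 1 counts in the WT libraries. Its neighbour LOC_Os05g39320 had 358 and 11 counts in mre11, against 0 and 2 counts in WT. Both were high in mre11 replicate 1, the library in which RAmy3D had its lowest level. The 2 models annotated with the alcohol dehydrogenase identifier, the enzyme that makes the ethanol, summed to 447 and 189 CPM in mre11, against 172 and 128 CPM in WT.

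The models with the cysteamine dioxygenase identifier, which in plants takes in the cysteine oxidases of oxygen sensing, followed the same order. They summed to 480 and 221 CPM in mre11, against 216 and 177 CPM in WT, and 8 of the 11 tested were higher in mre11 replicate 1 than in replicate 2. LOC_Os03g45250 had 1796 and 24 counts in mre11, against 8 and 11 counts in WT, the difference between mre11 libraries that ranked 2 by size among all tested genes. At least 16-fold apart between the mre11 libraries were 18 tested genes, 16 of them higher in replicate 1, and RAmy3D was 1 of the 2 higher in replicate 2. Between the WT libraries 6 genes were as far apart. The part of this difference between the mre11 libraries in the α-amylase values was not tested.

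The RPKM of RAmy3D rested on a length 2.25 times the listed one. Of 19966 gene models with at least 50 counts in mre11 replicate 2, 2.71% had a ratio over 1.5, and the median ratio was 0.595.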
